A study of Mus musculus with 47 samples.

Results

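Hepatocytes do different work along the path of blood through the liver lobule, and 9 genes that mark this zonation were examined in histone mark maps of mouse liver. Glul, Cyp2e1, Cyp1a2, Axin2, Lgr5 and Oat are expressed near the central vein, where blood leaves the lobule. Ass1, Cps1 and Hal are expressed near the portal vein, where it enters. The genes were chosen by name as zonation markers, 6 central and 3 portal, out of 22089 protein-coding genes whose name occurs once in the annotation, and all 9 were found in it. For each gene the percent of its mm9 span inside H3K27me3 regions was taken in 4 lists, and H3K27ac and H3K4me1 peaks were counted within 10 kb of the span in 4 lists each.

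Livers came from mice of 7 weeks, male and female, in 2 genotypes. Floxed control mice carried Ezh2 f/f. E1/E2-KO mice, double knockouts, were Ezh1-/- in the whole body, and their Ezh2 f/f alleles were deleted by Alb-Cre, whose albumin promoter is active in hepatocytes. Other liver cells of these mice therefore lacked Ezh1 but kept Ezh2. The sample records name 4 livers for each mark and group, except 3 for H3K4me1 in female E1/E2-KO liver. The reads of a group were pooled before calling, so that each group is represented by 1 list, no value has a replicate error, and no difference below was tested. The tissue was whole liver with no sort for zone, so that fewer cells of a type and less of a mark per cell cannot be told apart. The lists hold positions only, the read depth behind them is unknown, and where a list has no peak the signal did not reach the threshold of the caller, which does not show that the mark was absent. Nor does a region or peak called in only 1 list show that the amount of the mark rose there.

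Ezh1 and Ezh2 are the enzymes of Polycomb repressive complex 2, which places H3K27me3 on chromatin that is kept silent. H3K27ac on the same lysine marks active promoters and enhancers, and H3K4me1 marks enhancers, active or poised. In the liver lobule, Wnt ligands released by endothelial cells at the central vein activate beta-catenin in the neighbouring hepatocytes, which turn on Glul, Axin2 and Lgr5. Ammonia is handled at both ends of the lobule, by the urea cycle in portal hepatocytes and by glutamine synthesis at the central vein.

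The lists differed in length in ways that touch every count below. H3K27ac peaks numbered 29359 in male control liver, the shortest of the 4 lists, 55930 in male E1/E2-KO, 49702 in female control and 51253 in female E1/E2-KO liver. The H3K4me1 lists held 51417 to 69797 peaks, and the H3K27me3 lists 15603 to 19796 regions, which covered 707 to 766 Mb. Of 6 hepatocyte markers, 5 had an H3K27ac peak within 10 kb in every list, and Serpina1a had no peak of either active mark in any list. The summed H3K27ac peaks of the 6 markers were 15, 37, 34 and 28 in male control, male E1/E2-KO, female control and female E1/E2-KO liver. Of the 4 cholangiocyte markers, Krt19, Krt7 and Epcam had no H3K27ac peak in any list, and Sox9 held all those of the list. Summed H3K27ac peaks in the same order were 4, 4, 3 and 3 for the 4 macrophage markers, 1, 3, 3 and 6 for the 4 stellate cell markers, 2, 3, 2 and 4 for the 4 cholangiocyte markers, 2, 2, 3 and 3 for the 3 lymphocyte markers and 1 in each list for the 4 markers of other tissues. Single genes held most of these sums too. Cd68 had 4, 3, 3 and 2 of the macrophage peaks, and Reln 1, 3, 2 and 3 of the stellate cell peaks. Cd79a had 2 of the lymphocyte peaks in each list, and Gata1 all those of other tissues. Emr1 of macrophages, Cd3e of T cells, and Neurod1, Myod1 and Nkx2-1 of other tissues had no H3K27ac peak in any list. Peaks of a histone mark do not show whether Ezh1 or Ezh2 was deleted, so the lists give no check of the knockout itself.

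In control liver, H3K27me3 lay on all central genes but Cyp1a2 and on none of the 3 portal genes. With the further genes of each zone described at the end, the contrast was less sharp, since at least 25% was covered at 9 of 18 central and 5 of 16 portal genes in male control and at 8 and 3 in female control liver, beside 34.3% and 34.2% of all genes. The portal count in male control liver thus lay near that of all genes. Regions covered some part of 5 of the 6 central genes in male control and in female control liver, all but Cyp1a2, and no part of any of the 3 portal genes in either. A region lay within 1 kb of the start of the same 5 central genes, against 37.7% of all genes in male control and 38.4% in female control liver. The 5 central genes nevertheless had active marks. In female control liver, 5 of the 9 genes had an H3K27ac peak within 1 kb of a start inside an H3K27me3 region. They were these 5 central genes, and the combination was found at 11.9% of all genes. In male control liver it was found at 4 of the 9, the same genes without Oat, against 7.57% of all genes. Since the 5 were named above for their H3K27me3, 1 part of the combination was already given for them. Whole liver cannot show whether both marks sat in the same cells.

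**Figure D1:**
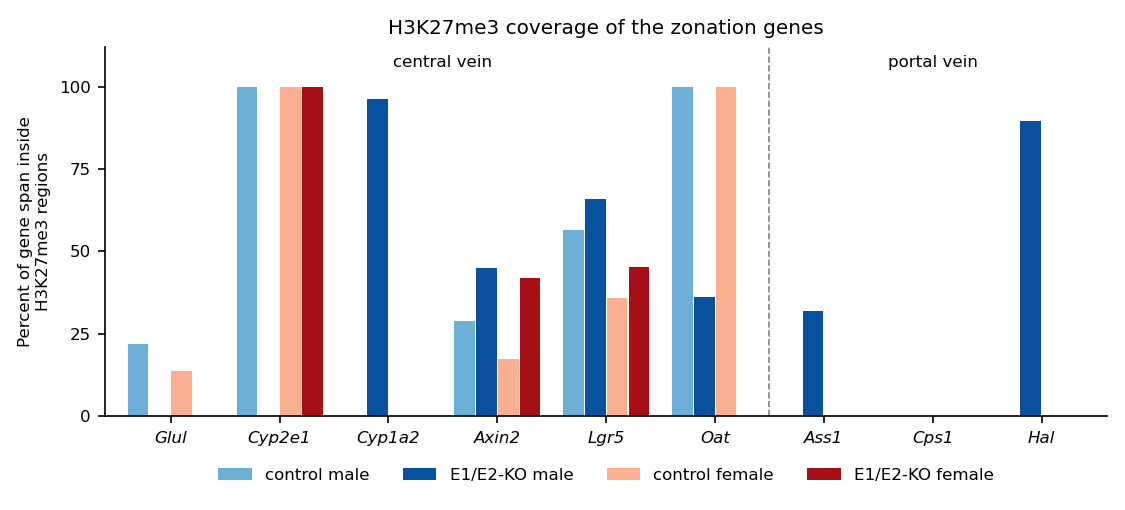
Percent of the bases of each gene span inside H3K27me3 regions (vertical axis) for the 9 zonation genes (horizontal axis), with 1 bar per group and no error bar because each group has 1 list. Cyp2e1 and Oat stand at 100% in both controls, and the portal genes rise above 0 only in male E1/E2-KO liver, at Ass1 and Hal.

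A change in coverage was called from 25 percentage points. In male liver, 2 of the 9 genes fell, Cyp2e1 and Oat, and 3 rose, Cyp1a2, Ass1 and Hal. Over all genes, 6.08% fell and 9.88% rose in male liver. In female liver, Oat fell and none of the 9 rose, against 7.57% and 6.33% of all genes. Of the genes with at least 25% coverage in control liver, Cyp2e1, Axin2, Lgr5 and Oat in male and Cyp2e1, Lgr5 and Oat in female, 2 of 4 and 1 of 3 fell. The background for these shares was 17.7% in male and 22.1% in female liver. With so few genes, these counts do not set the zonation genes apart from the rest. The median coverage of the 6 central genes was 42.5%, 40.5%, 26.5% and 20.9% in male control, male E1/E2-KO, female control and female E1/E2-KO liver, that of the 3 portal genes 0%, 31.8%, 0% and 0%, and that of all genes 0% in each list.

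Oat encodes ornithine aminotransferase, a mitochondrial enzyme that converts ornithine to glutamate semialdehyde. It lies on the minus strand of chr7:139749158-139768081. The span was covered to 100% in male control, 36.2% in male E1/E2-KO, 100% in female control and 0% in female E1/E2-KO liver. Both E1/E2-KO lists lay below both controls, and Oat was the only member whose coverage was called lower in both sexes. In the controls, the gene sat inside broad domains of 541 kb in male and 537 kb in female liver, which also held Nkx1-2, Chst15 and part of Cpxm2 and Lhpp. Of the control male domain, 85.8% was still covered in male E1/E2-KO liver, and 84.0% of the control female domain in female E1/E2-KO liver. What was missing included the start of Oat. In male E1/E2-KO liver the uncovered stretch ran from 1.12 kb before the start to 12.1 kb after it, and in female E1/E2-KO liver from 1.52 kb before to 25.7 kb after. Nkx1-2, a homeobox gene in the same domain, stayed at 100% in all 4 lists, while Chst15, a sulfotransferase gene, went from 100% to 23.9% in male and 34.2% in female liver.

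H3K27ac at the start of Oat was called in 3 of the 4 lists. Peaks within 1 kb of the start were absent in male control, and present in male E1/E2-KO, female control and female E1/E2-KO liver. A peak 24.7 kb to 24.8 kb downstream of the start was called in all 4. The female control and female E1/E2-KO lists placed peaks at nearly the same positions although H3K27me3 covered the start in the former and not in the latter. Within 10 kb, the counts were 1, 2, 3 and 3 in the order given above. The annotation also holds an Fgfr2 gene model of over 3 Mb that spans Oat, so that the region is not annotated to Oat alone.

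The 250 bases before the start of Oat, the stretch from which H3K27me3 was missing in both E1/E2-KO lists, read as follows, 5′ to 3′ on the gene's strand (chr7:139768082-139768331, minus). Letters in capitals, here and in all sequences below, mark matches to CTTTGAT or CTTTGAA on either strand, the core recognised by the TCF and LEF factors of Wnt signalling, and this window held none. No annotated exon overlaps any of the windows printed.
Oat promoter: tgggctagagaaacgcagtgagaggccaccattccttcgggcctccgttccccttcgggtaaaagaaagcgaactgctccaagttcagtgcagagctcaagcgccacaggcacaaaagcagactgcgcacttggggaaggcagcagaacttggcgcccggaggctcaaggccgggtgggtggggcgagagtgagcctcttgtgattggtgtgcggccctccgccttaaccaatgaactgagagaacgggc

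Cyp2e1, the cytochrome P450 that oxidises ethanol and paracetamol, lies at chr7:147949638-147960874 on the plus strand. Its coverage was 100% in male control, 0% in male E1/E2-KO, 100% in female control and 100% in female E1/E2-KO liver. Thus 3 lists covered the gene whole and the male E1/E2-KO list did not touch it. The region over the gene was 73.6 kb wide in male control, 74.8 kb in female control and 20 kb in female E1/E2-KO liver. In male E1/E2-KO liver the nearest region downstream began 28.4 kb after the start, and Syce1, a meiotic gene next to Cyp2e1, was covered to 0% from 100%. In female E1/E2-KO liver Syce1 was covered to 38.3% and Cyp2e1 still to 100%.

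H3K27ac peaks within 10 kb of Cyp2e1 numbered 2, 6, 6 and 5 in male control, male E1/E2-KO, female control and female E1/E2-KO liver. The male control list was the low one. Of the 6 peaks in male E1/E2-KO liver, 4 had no overlapping peak in male control liver, and the widest of these, 1103 bp, was centred 0.843 kb after the start in an intron. Peaks at nearly the same place were called in both female lists, with widths of 1106 bp and 1253 bp. H3K4me1 counts were 2, 3, 2 and 2. The 250 bases before the start, covered by H3K27me3 in 3 of the 4 lists, contained 1 match to the TCF motif (chr7:147949388-147949637, plus).
Cyp2e1 promoter: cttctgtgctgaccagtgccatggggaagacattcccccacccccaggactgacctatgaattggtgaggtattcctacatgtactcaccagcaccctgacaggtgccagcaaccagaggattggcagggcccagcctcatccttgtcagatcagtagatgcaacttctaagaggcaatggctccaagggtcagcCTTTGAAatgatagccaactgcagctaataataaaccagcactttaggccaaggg

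Cyp1a2, the cytochrome P450 of caffeine and arylamine metabolism, lies at chr9:57524744-57531462 on the minus strand and went the other way. H3K27me3 covered 0%, 96.1%, 0% and 0% of it in male control, male E1/E2-KO, female control and female E1/E2-KO liver. Only the male E1/E2-KO list had a region on the gene, 30.0 kb wide, which ended inside the gene just short of the start. The nearest region in male control liver lay 46.7 kb from the gene. H3K27ac counts were 1, 4, 5 and 3. The male E1/E2-KO list thus had an H3K27me3 region over the gene body and 3 H3K27ac peaks with no overlapping peak in male control liver. Of these peaks, 2 lay within 1 kb of the start. With equal numbers of the widest peaks, the male H3K27ac difference was 1 and was no longer called. Female liver moved differently, with a call of lower H3K27ac from 5 to 3 peaks. With equal numbers of the widest peaks, however, the difference turned to 1 more in E1/E2-KO liver. This female call was also lost in the gene span alone, at 0. Further losses came with 50 kb on each side, by bases and with a call from 2 times. H3K4me1 counts were 6, 3, 2 and 1 and were lower in E1/E2-KO than in control liver in either sex, and passed the call in male liver only, which was lost at a change of -1 after merging, at 0 in the gene span alone and by bases.

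Glul encodes glutamine synthetase, which captures the ammonia that escapes the urea cycle, and is restricted to the hepatocytes that border the central vein. It lies at chr1:155747074-155756853 on the plus strand. Coverage was 21.7%, 0%, 13.6% and 0% in the order used above. Both controls had a region over the start, 18.0 kb and 19.6 kb wide, and neither E1/E2-KO list did, but the changes were under 25 points and were not called. In male E1/E2-KO liver 82.2% of the control male region was still covered, up to 1.07 kb before the start, whereas in female E1/E2-KO liver none of the control female region was. The gene 5830403L16Rik, on the opposite strand, overlaps the start of Glul and holds most of that region, so the region is not annotated to Glul alone.

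H3K27ac peaks at Glul numbered 2, 4, 3 and 4, and H3K4me1 peaks 3, 1, 2 and 2. A wide H3K27ac peak just after the start, from 1246 bp to 1497 bp, was called in all 4 lists. A further peak was called in both E1/E2-KO lists and in neither control. It was centred 0.411 kb upstream in male E1/E2-KO and 0.401 kb upstream in female E1/E2-KO liver. The nearest peak in the control list of the same sex lay 356 bp and 327 bp away. This upstream peak also lay inside the span of 5830403L16Rik, so it is not annotated to Glul alone. Another peak 10.4 kb after the start also lacked a counterpart in the control list of the same sex, but the male E1/E2-KO peak overlapped a control female peak and the female E1/E2-KO peak lay only 28 bp from it. That position is past the end of Glul and inside the genes A930039A15Rik and Gm11074. The middle 200 bases of the upstream peak are shown because no control list of either sex had a peak there (chr1:155746573-155746772, plus). They held no match to the TCF motif.
Glul upstream peak: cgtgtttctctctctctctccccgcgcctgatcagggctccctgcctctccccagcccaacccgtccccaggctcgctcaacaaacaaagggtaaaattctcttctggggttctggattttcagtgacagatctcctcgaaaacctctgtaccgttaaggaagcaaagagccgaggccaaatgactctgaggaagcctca

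Axin2 and Lgr5 belong to the Wnt pathway itself. Axin2 encodes a scaffold of the complex that destroys beta-catenin, and Lgr5 a receptor for R-spondins, which strengthen Wnt signals. Axin2 (chr11:108781663-108812097, plus) was covered to 28.7%, 44.8%, 17.2% and 41.9%, and Lgr5 (chr10:114887367-115024836, minus) to 56.4%, 66.0%, 35.8% and 45.3%. At both genes each E1/E2-KO value lay above the control of the same sex, by less than 25 points, so neither change was called. The start of both genes was inside a region in all 4 lists, which was true of no other of the 9 genes. In male E1/E2-KO liver 87.2% of the control male region over the Axin2 start remained, and in female E1/E2-KO liver 100% of the control female region.

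H3K27ac peaks within 10 kb of Axin2 and of Lgr5 numbered 2, 3, 3 and 3 at each gene. The peak just after the Axin2 start was 1402 bp, 1958 bp, 1978 bp and 2193 bp wide, so it was the narrowest in male control liver. An intron peak at 27.3 kb from the Axin2 start was called in both E1/E2-KO lists and in neither control at that position. A control female peak ended 49 bp before it, whereas the nearest control male peak lay 10762 bp away. H3K4me1 counts were 4, 4, 3 and 4 at Axin2 and 6, 4, 4 and 4 at Lgr5, of which only the difference at Lgr5 in male liver was called, while the bases inside its peaks were 518 more in male E1/E2-KO liver. The middle 200 bases of the Axin2 intron peak are shown since they held 1 match to the TCF motif (chr11:108808902-108809101, plus).
Axin2 intron peak: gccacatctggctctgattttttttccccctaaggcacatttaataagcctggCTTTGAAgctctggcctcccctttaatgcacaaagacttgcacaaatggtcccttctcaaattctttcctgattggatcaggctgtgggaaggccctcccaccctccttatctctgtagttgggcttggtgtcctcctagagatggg

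Hal encodes histidine ammonia-lyase, the entry enzyme of histidine degradation, and lies at chr10:92951513-92982049 on the plus strand. Its coverage was 0%, 89.5%, 0% and 0%. Of the 4 lists, only that of male E1/E2-KO liver had regions on the gene, 22.8 kb and 66.0 kb wide, the former over the start. Amdhd1, which lies 4.03 kb from Hal and acts later in the same pathway, was covered to 0%, 100%, 0% and 0%. H3K27ac counts, at 5, 5, 6 and 6, did not pass the call in either sex, and every list had a peak within 1 kb of the start. Other settings did call Hal. In female liver H3K27ac was lower in the gene span alone and after merging, each at -2, and by lost peaks, at -3. It was also lower by bases, from 5629 in control to 3120 in E1/E2-KO liver. In male liver the bases were higher, from 2344 to 4581.

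H3K4me1 peaks at Hal were fewer in E1/E2-KO liver of both sexes. Counts were 5 in male control and 2 in male E1/E2-KO liver, and 3 in female control and 0 in female E1/E2-KO liver, and both differences were called. The 3 female control peaks lay outside the gene span, so that inside the span alone the female difference was not called. Those centred 36.4 kb and 37.2 kb after the start lay inside the neighbour Amdhd1. The female E1/E2-KO list, from 3 livers, was also the shortest of the H3K4me1 lists. A peak upstream of the start, centred at 0.981 kb and 0.936 kb, was called in both controls and in neither E1/E2-KO list. The nearest peak in the E1/E2-KO list of the same sex lay 32321 bp and 32541 bp away. In the female list 3 of 3 peaks were lost, and in the male list 3 of 5. The middle 200 bases of the lost upstream peak (chr10:92950477-92950676, plus) and the 250 bases before the start (chr10:92951263-92951512, plus) are given because the former lost H3K4me1 in both sexes and the latter came under H3K27me3 in male E1/E2-KO liver. H3K27ac peaks of both E1/E2-KO lists and of female control liver lay over the former, which held no match to the TCF motif, while the latter held 1.
Hal upstream peak: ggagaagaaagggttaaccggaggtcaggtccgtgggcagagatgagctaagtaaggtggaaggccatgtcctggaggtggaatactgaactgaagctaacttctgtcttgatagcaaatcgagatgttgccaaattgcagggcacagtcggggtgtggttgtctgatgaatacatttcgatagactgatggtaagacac
Hal promoter: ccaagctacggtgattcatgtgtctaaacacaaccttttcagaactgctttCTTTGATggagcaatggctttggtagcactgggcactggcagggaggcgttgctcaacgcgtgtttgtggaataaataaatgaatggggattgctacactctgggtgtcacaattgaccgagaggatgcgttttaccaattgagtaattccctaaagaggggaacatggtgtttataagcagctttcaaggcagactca

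Ass1 encodes argininosuccinate synthase of the urea cycle and lies at chr2:31325727-31376192 on the plus strand. Its coverage was 0%, 31.8%, 0% and 0%, so that it would not have passed a call from 50 points. The E1/E2-KO male region over the start was 267 kb wide, and 87.0% of it was already covered in male control liver, where the mark lay over the neighbours Hmcn2 and Ncs1. That of male E1/E2-KO liver went on to 15.5 kb after the start of Ass1. The nearest region lay 3.41 kb from the gene in male control, 3.01 kb in female control and 6.93 kb in female E1/E2-KO liver.

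H3K27ac peaks at Ass1 numbered 3, 8, 9 and 8, the most of the 9 genes in male E1/E2-KO and in both female lists. Of the 9 sites, 3 were called in all 4 lists and 5 in all but male control liver. H3K4me1 counts were 4, 3, 3 and 3. A single H3K4me1 peak, 6.11 kb upstream in male control and 5.99 kb upstream in female control liver, had no counterpart in the E1/E2-KO list of either sex, although H3K27ac was called there in both. Its middle 200 bases (chr2:31319626-31319825, plus) and the 250 bases before the start (chr2:31325477-31325726, plus), which came under H3K27me3 in male E1/E2-KO liver, held no match to the TCF motif.
Ass1 upstream peak: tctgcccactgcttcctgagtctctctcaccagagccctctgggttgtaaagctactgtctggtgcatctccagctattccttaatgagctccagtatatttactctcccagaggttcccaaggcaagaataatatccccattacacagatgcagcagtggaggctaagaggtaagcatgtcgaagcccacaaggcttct
Ass1 promoter: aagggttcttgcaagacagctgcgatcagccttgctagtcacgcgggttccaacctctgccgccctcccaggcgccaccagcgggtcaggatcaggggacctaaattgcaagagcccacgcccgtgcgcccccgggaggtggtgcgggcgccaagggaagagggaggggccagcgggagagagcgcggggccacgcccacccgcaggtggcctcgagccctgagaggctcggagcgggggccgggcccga

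Cps1, the gene of carbamoyl phosphate synthetase and so of the entry step of the urea cycle, had no H3K27me3 in any of the 4 lists. It lies at chr1:67169600-67277833 on the plus strand, with the nearest region between 69.2 kb and 170 kb away. H3K27ac counts were 3, 5, 4 and 5, called higher in male liver. This call was lost with 50 kb on each side, with a call from 2 times, at a change of 1 after merging, and at 0 both in the gene span alone and with lists of the same length. A peak within 1 kb of the start was called in all but male control liver, where the nearest was centred 1.80 kb after it. H3K4me1 counts were 1, 1, 0 and 0, so that Cps1 had such a peak in the male lists only.

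**Figure D2:**
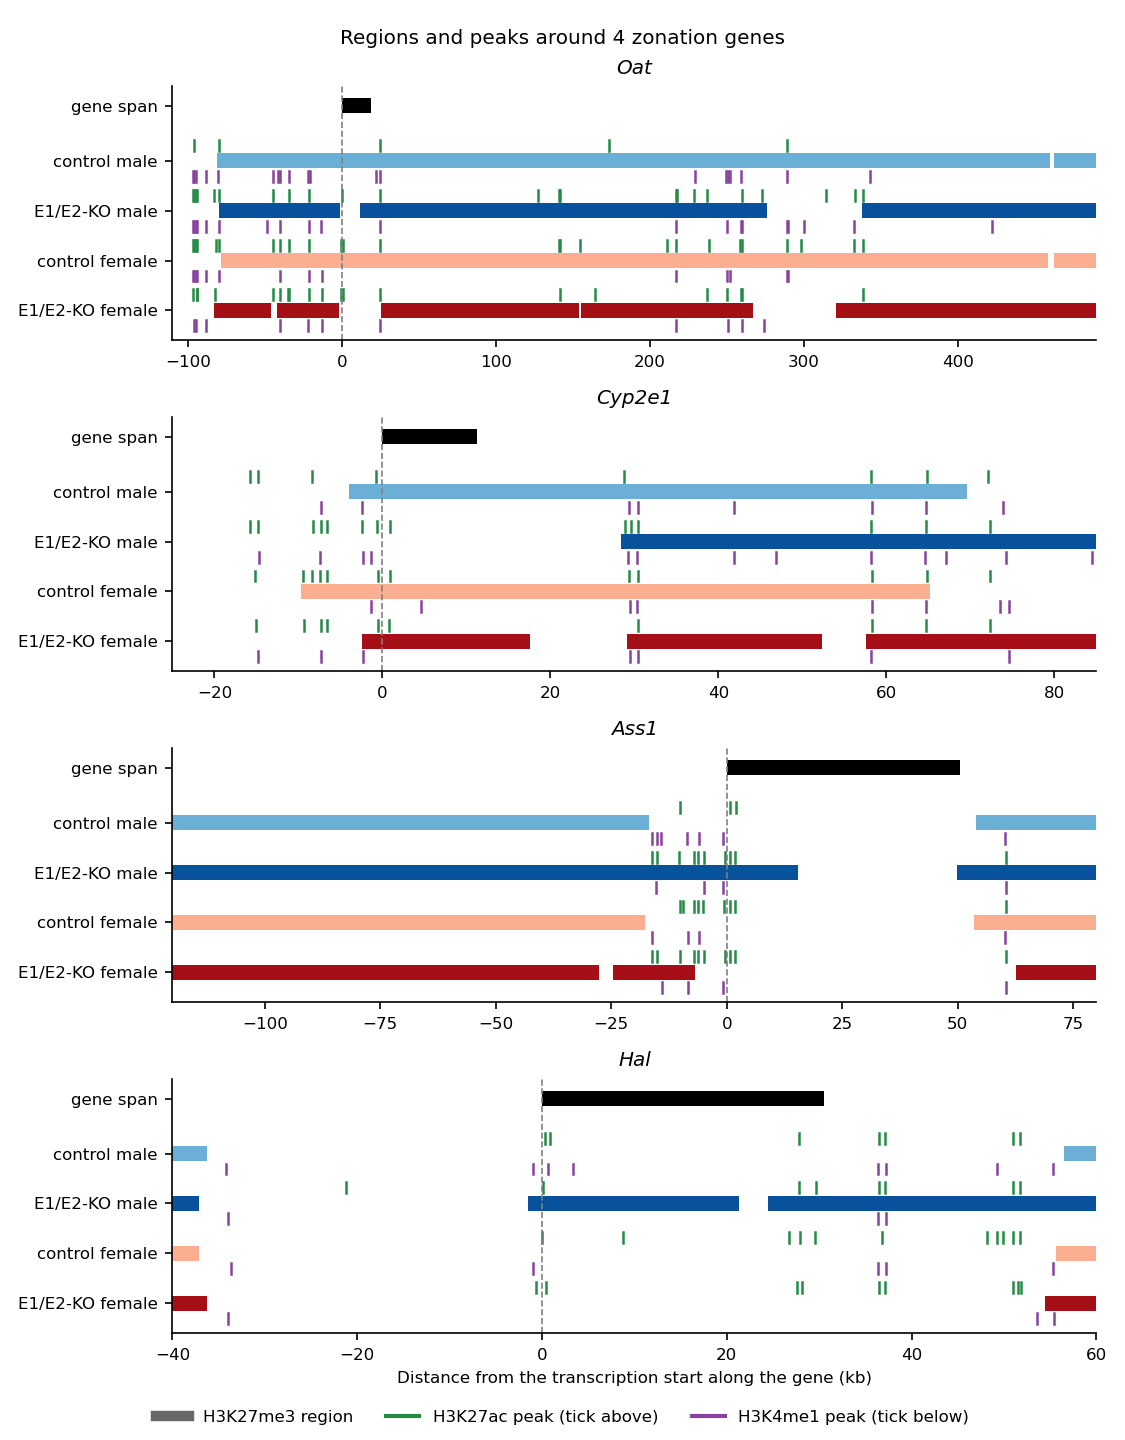
H3K27me3 regions (bars), H3K27ac peaks (ticks above each bar row) and H3K4me1 peaks (ticks below) in the 4 groups around Oat, Cyp2e1, Ass1 and Hal, by distance in kb from the transcription start along the gene. Both E1/E2-KO rows break at the start of Oat, the male E1/E2-KO row is empty over Cyp2e1, and only the male E1/E2-KO row reaches over the starts of Ass1 and Hal.

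Several of the 9 genes had more H3K27ac peaks in male E1/E2-KO than in male control liver, and none was called higher in female liver. In male liver, 5 of the 9 passed the call, Glul, Cyp2e1, Cyp1a2, Ass1 and Cps1, and none was lower. The call asked for a difference of 2 peaks and 1.5 times, and 34.2% of all genes with a peak were higher in male liver by it and 0.634% lower. In female liver none was higher, beside 8.18% of all genes, and Cyp1a2 was lower, beside 7.47%. The bases inside peaks rose by 1.5 times or more at 9 of 9 genes in male liver, where 53.3% of all genes did. Counted inside the gene span alone, without the 10 kb on each side, none of the 9 passed. When equal numbers of the widest peaks were taken from each list, only Ass1 passed, against 5.74% of all genes. The male calls at Glul, Cyp2e1, Cyp1a2 and Cps1 were therefore lost once the lists had the same length, and the part of the short male control list in them was not otherwise tested.

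Site by site, male control was again the list most often missing. Peaks of the 4 lists that overlapped were joined into sites, which gave 50 H3K27ac sites at the 9 genes. Of these, 17 were called in all 4 lists, or 34%, against 30.1% of all 73144 sites. A further 13, or 26%, were called in all but male control liver, against 13.4% of all sites, and these were at Glul, Cyp2e1, Cyp1a2, Oat and Ass1. No site was called in all but male E1/E2-KO liver, nor in both controls alone, patterns held by 0.469% and 0.617% of all sites. In both E1/E2-KO lists alone there were 2 sites, at Glul and at Axin2, or 4%, near the 5.75% of all sites.

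**Figure D3:**
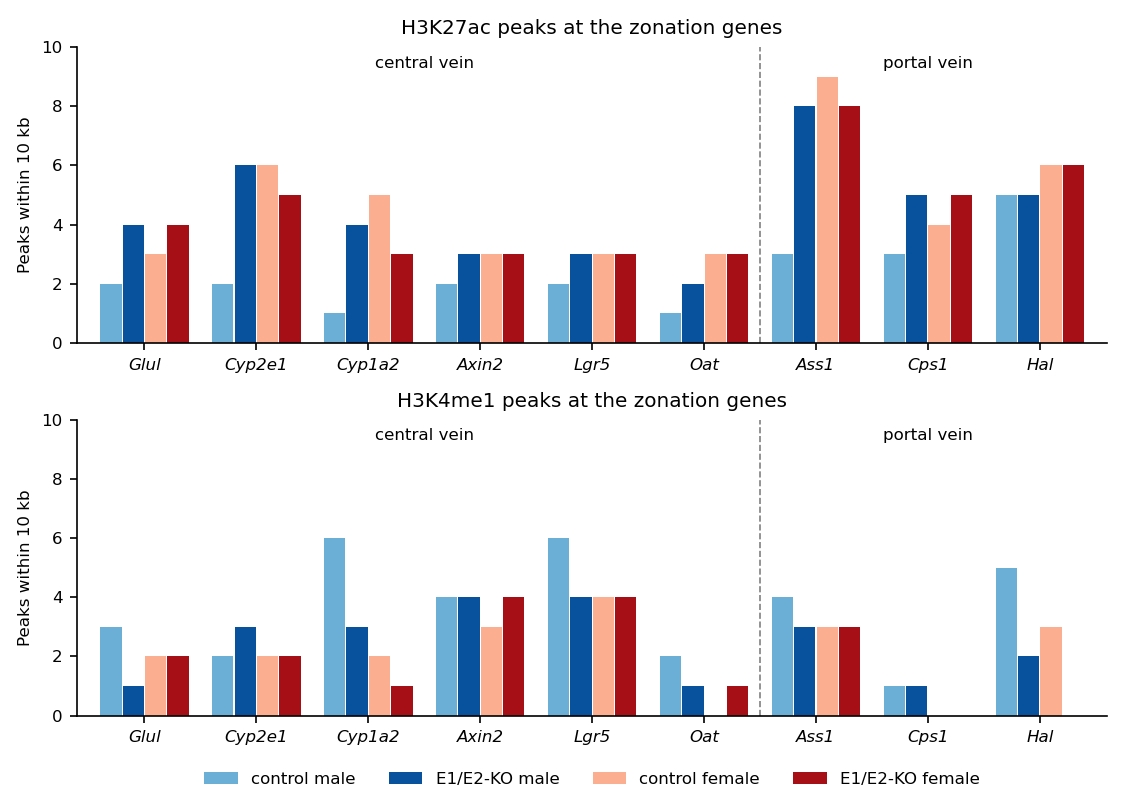
Number of H3K27ac peaks (top) and H3K4me1 peaks (bottom) within 10 kb of each gene span, 1 bar per group with no error bar, since each group has 1 list. The male control bar is the lowest in H3K27ac at Glul, Cyp2e1, Cyp1a2, Axin2, Lgr5, Oat, Ass1 and Cps1, and Hal has no H3K4me1 peak in female E1/E2-KO liver.

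H3K27ac peaks gained in both sexes, with no overlapping peak in the control list of the same sex, were found at 2 of the 9 genes, Glul and Axin2, against 18.5% of all genes. None of the 9 lost an H3K27ac peak in both sexes, against 2.94%. For H3K4me1, none gained a peak in both sexes, against 14.8%, and Ass1 and Hal each lost a peak in both sexes, against 19.0%. Read against the background, these counts of 0 to 2 genes in 9 are no result about the zonation genes.

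H3K4me1 peaks were fewer at 4 of the 9 genes in male E1/E2-KO liver, Glul, Cyp1a2, Lgr5 and Hal, against 13.2% of all genes, and at Hal in female liver, against 15.4%. The male calls at Cyp1a2 and Lgr5 were lost, each at -1, with peaks merged within 1 kb and when lists were reduced to the same length, and in the gene span alone those at Glul and Cyp1a2 and that at Hal in female liver were lost, at -1, 0 and 0. None of the 9 had more by the call in either sex, beside 9.72% of all genes in male and 7.17% in female liver. Summed over the 9 genes, there were 33, 22, 19 and 17 H3K4me1 peaks in male control, male E1/E2-KO, female control and female E1/E2-KO liver. Of 37 H3K4me1 sites, 9 were called in all 4 lists, or 24.3%, against 28.4% of all sites. At starts, H3K4me1 was called within 1 kb at 5, 3, 3 and 1 of the 9 genes, beside a share of all genes that also fell in that order, from 47.4% in male control and 46.1% in male E1/E2-KO to 36.3% in female E1/E2-KO liver.

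**Figure D4:**
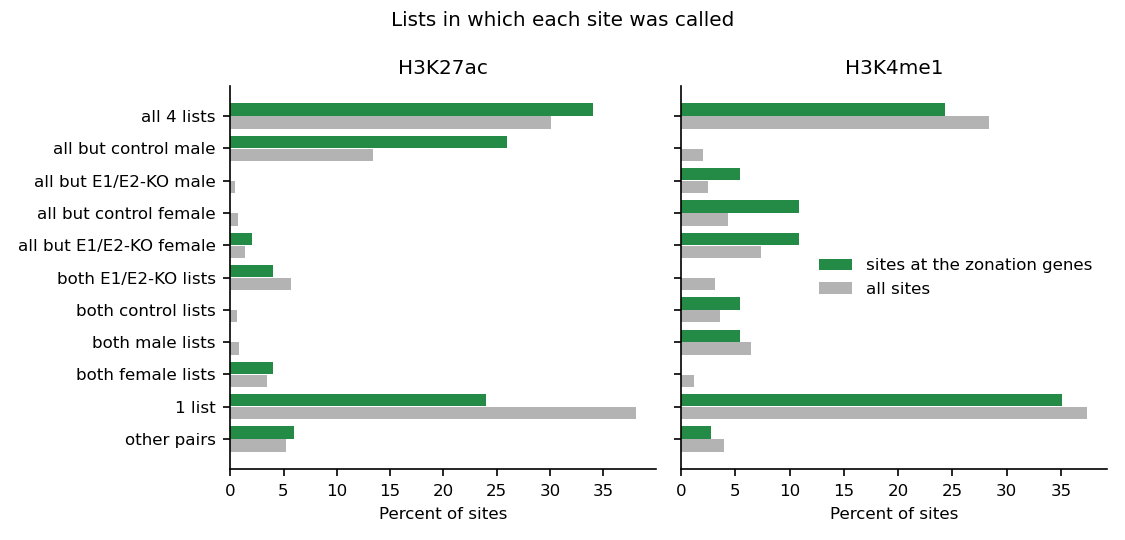
Percent of sites (horizontal axis) by the lists in which they were called (vertical axis), for H3K27ac and H3K4me1, at the 9 genes (green) and over all sites (grey). H3K27ac sites missing only from the male control list make up 26% of sites at the 9 genes and 13.4% of all sites.

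More of the peaks at these genes touched H3K27me3 in male E1/E2-KO liver than in the other lists. Of the H3K27ac peaks within 10 kb, 6 of 21 touched an H3K27me3 region of the same group in male control, 21 of 40 in male E1/E2-KO, 15 of 42 in female control and 7 of 40 in female E1/E2-KO liver. The shares were 28.6%, 52.5%, 35.7% and 17.5%, beside 15.5%, 33.6%, 19.1% and 22.2% of all H3K27ac peaks. Among H3K4me1 peaks the shares were 30.3%, 68.2%, 36.8% and 35.3%, beside 27.7%, 39.9%, 25.9% and 27.9% of all peaks. The genes involved in male E1/E2-KO liver were Cyp1a2, Axin2, Lgr5, Oat, Ass1 and Hal.

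The genes differed in base composition around the start. In the 1000 bases centred on the start, Axin2 had 82 CpG dinucleotides, Glul and Oat 70 each, and Lgr5 and Ass1 56 each, above the median of 42 over all genes. Hal had 25, Cyp2e1 10, Cyp1a2 9 and Cps1 8, all below it. Of the 5 genes above the median, all but Ass1 had an H3K27me3 region within 1 kb of the start in both controls, and of the 4 below it only Cyp2e1 did. Over all genes the shares hardly differed, at 32.1% above and 33.2% below the median. The TCF motif matched in the 250 bases before the start at Cyp2e1, Cyp1a2, Cps1 and Hal, or 4 of 9, and at 6.94% of all 22089 genes. It was not found in that window at Glul, Axin2 or Lgr5. In 200-base windows at the middle of peaks, it was found in 6.63% of H3K27ac peaks of male E1/E2-KO liver, 8.03% of H3K4me1 peaks of male control liver and 7.72% of H3K4me1 peaks of male E1/E2-KO liver. Such a match is a run of letters and does not show that a factor binds there.

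Further genes of the same zones, taken from textbook lists, were set beside the 9. Of 13 further portal genes, 7 rose in H3K27me3 coverage in male liver and none fell, and 6 rose and 2 fell in female liver. Over all genes, 9.88% rose and 6.08% fell in male and 6.33% rose and 7.57% fell in female liver, which is the background for this and the following lists. G6pc, the glucose-6-phosphatase gene that closes gluconeogenesis, Pigr, the receptor that carries immunoglobulin into bile, and Uroc1, the urocanase gene of histidine degradation, each went from 0% to 100% in both sexes. Gls2, the liver glutaminase gene, went from 0% to 77.7% in male and 95.8% in female liver, and Cdh1, which encodes E-cadherin, from 44.8% to 100% and from 20.9% to 79.1%. Pck1 and Fbp1, genes of gluconeogenesis, rose in male liver only by the call, to 51.0% and 100% from 0%, and Ftcd, of histidine and folate metabolism, in female liver only, to 67.3% from 0%. Sds, which encodes serine dehydratase, fell from 100% to 0% and Hsd17b13 from 100% to 65.7% in female liver. With Ass1 and Hal, 9 of 16 portal genes rose in male liver.

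Of 12 further central genes, 3 rose and 1 fell in male liver, and 1 rose and 1 fell in female liver. A count of 1 in 12 lies near the shares over all genes. Lect2, which encodes a secreted hepatokine, went from 0% to 100% in male and 31.2% in female liver. Cyp27a1, of bile acid synthesis, and Gulo, of vitamin C synthesis, rose in male liver to 38.1% and 64.4% from 0%. Aldh3a2, a fatty aldehyde dehydrogenase gene, fell in both sexes, from 100% to 37.9% and from 89.6% to 23.3%. Tbx3, a beta-catenin target that encodes a transcription factor, was covered to 100% in all 4 lists. With the members, 4 of 18 central genes rose and 3 fell in male liver. The difference between the portal and the central lists was not tested. Genes listed as hepatocyte markers, which were not chosen by zone, rose as well. Of the 6 hepatocyte markers, Apoa1, Hnf4a and Tat rose in both sexes, to 100%, 89.1% and 100% in male and 50.3%, 71.0% and 65.8% in female liver from 0%.

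**Figure D5:**
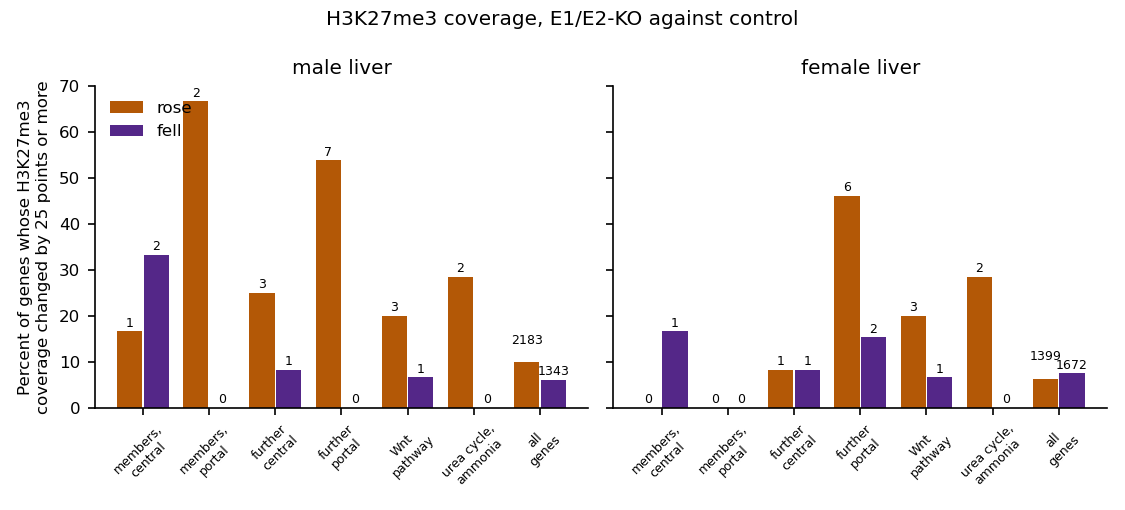
Percent of genes in each list whose H3K27me3 coverage changed by 25 points or more (vertical axis), with rises in brown, falls in purple and the number of genes above each bar, for male and female liver. In male liver the further portal genes have 7 rises and no fall, and the last pair of bars gives all 22089 genes.

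Among 15 genes of the Wnt and beta-catenin pathway, 3 rose and 1 fell in each sex, and 1 in 15 is close to the 6.08% and 7.57% of all genes that fell. Rnf43, which encodes a ubiquitin ligase that removes Wnt receptors, went from 0% to 100% in male and 92.3% in female liver. Notum, which encodes an enzyme that inactivates Wnt, went from 66.2% and 55.3% to 100% in both sexes. Fzd6, a Wnt receptor gene, rose in male liver from 4.15% to 44.3%, and Tcf7, a transcription factor gene of the pathway, in female liver from 8.70% to 67.1%. Rspo3, the R-spondin of the central vein endothelium, fell from 90.8% to 29.6% and from 59.4% to 26.2%. Lef1, which encodes a partner of beta-catenin, was the only gene of the 4 further lists with no H3K27ac peak within 10 kb in any group. Ctnnb1, the beta-catenin gene, was at 0% in all 4 lists. The ligand genes Wnt2 and Wnt9b were not called in either sex. Wnt2 went from 76.3% to 65.8% in male and from 78.2% to 86.6% in female liver. Wnt9b went from 85.8% to 100% in male and stayed at 98.2% in female liver. Of the 4 endothelial markers, Pecam1, Stab2 and Cdh5 fell in both sexes, while Kdr stayed at 100% in all 4 lists. The summed H3K27ac peaks of the 4 markers were 7, 27, 20 and 27 in the order used above. Cdh5 had no H3K27ac peak in either control list and 3 and 2 in the E1/E2-KO lists. The part of endothelial cells in the values of Rspo3 was not tested.

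Of 7 further genes of the urea cycle and of ammonia handling, Nags, which encodes the enzyme that makes the activator of carbamoyl phosphate synthetase, and Slc38a3, a glutamine transporter gene, went from 0% to 100% in both sexes. Asl, Slc25a15, Slc25a13 and Glud1 were at 0% in all 4 lists, like Cps1, and none of the 7 fell in either sex.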

How the data were processed

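The 3 histone marks were measured by chromatin immunoprecipitation and sequencing in 47 samples of formaldehyde-fixed mouse liver. The authors concatenated all reads of each group, mapped them to mm9 with Bowtie2 (2.3.2), and called H3K27me3 regions with SICER (1.1; windows of 400 bp, gaps of 2400 bp) and the other peaks with MACS2 (2.1.1), versions as in the submitters' processing notes. The deposited files are 12 lists of start and end positions, with no score, count or depth, so that precision cannot be given and no test was made from them. The authors' own tests between the livers of each group were not used here. A broad SICER region may bridge gaps in the mark, and how many peaks pass depends on depth, which can move counts between lists.

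Gene spans, over all transcripts, came from GENCODE M1 on NCBIM37, the same assembly as mm9. The start is that of the longest coding transcript. Overlaps were computed in Python (3.11.15) with NumPy (2.4.6), plots were drawn with matplotlib (3.10.9), and the overlap code was tested on simulated intervals. A peak was called gained or lost where it shared no base with the other list of the same sex, and in both sexes where such peaks overlapped. Sequences were read from NCBIM37. Promoters are given as the 250 bases before the start only, although bases after it had also been planned, and peaks as their middle 200 bases. The members and lists were chosen with earlier results of these data known. Some genes of the lists are not reported here, and all counts are given without them. The genes named are the 9 members and, in the further lists, those whose coverage changed by 25 points or that had no H3K27ac peak in any group. Tbx3, Ctnnb1, Wnt2, Wnt9b, Otc, Asl, Slc25a15, Slc25a13, Glud1, the markers of cell types and the neighbours of members were named in addition, after their values were seen.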

Additional observations from a re-analysis of the deposited data

Results flagged for a closer look

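The number of peaks changed in opposite directions in male and female liver at a few of the 9 genes, and none of these differences was tested, since each group has 1 list. H3K27ac peaks at Cyp2e1 changed by 4 in male and by -1 in female liver, a difference of 5. At Cyp1a2 they changed by 3 and by -2, a difference of 5, and at Ass1 by 5 and by -1, a difference of 6. In these 3 cases the male control list, the shortest of the H3K27ac lists, was the low one. With equal numbers of the widest peaks from each list, the changes in male and female liver were 0 and 1 at Cyp2e1, 1 and 1 at Cyp1a2, and 2 and 0 at Ass1, so that they were no longer opposite. H3K4me1 peaks at Oat changed by -1 in male and by 1 in female liver, a difference of -2. Coverage by H3K27me3 did not change in opposite directions in the sexes at any of the 9 genes.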

How the results depend on the processing

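A change at a gene took the other sign under an alternative in 8 cases, of which 2 had been called. H3K27ac at Cyp1a2 in female liver went from -2 to 1 peaks with equal numbers of the widest peaks, and H3K4me1 at Lgr5 in male liver from -2 peaks to 518 more bases. The other 6 were H3K27ac differences at Lgr5 in male and at Cyp2e1, Ass1 and Cps1 in female liver, where Cps1, at 1 more peak, was at -2 once list lengths were made equal and so was called lower. Counts of genes that moved by over 1.5 times are given here, and for each of them the cause was not tested except where the setting itself leaves fewer peaks. For H3K27me3, 2 genes fell in female liver, in place of 1, with spans extended by 3 kb and with a call from 10 points, and 1 rose, in place of 0, from 10 points. For H3K27ac in male liver, the 5 higher genes became 0 inside the gene span alone, 1 with peaks merged within 1 kb, 1 with equal numbers of the widest peaks, 9 by bases and 9 by gained peaks at either overlap. In female liver, the higher genes became 1, in place of 0, with 50 kb and by gained peaks at either overlap. The lower genes became 0, in place of 1, with 50 kb and at 2 times, 2 after merging, 4 by lost peaks and 5 at 50% overlap. In the gene span alone and by bases the count stayed at 1, but the gene was Hal in place of Cyp1a2.

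For H3K4me1 in male liver, the 4 lower genes became 2 inside the span alone, 7 with 50 kb and 2 after merging. The higher genes became 1, in place of 0, by bases and by gained peaks at either overlap. In female liver, the lower genes became 0, in place of 1, inside the span alone, and 2 with 50 kb, by bases and by lost peaks at either overlap, and the higher genes 1, in place of 0, by bases and by gained peaks at either overlap. No paired analysis was possible because the reads of all livers of a group were pooled before calling, and leaving out a liver could not be run for the same reason. The unknown depth limits every absence of a peak.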

Other observations

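Enzymes of histidine degradation beside Hal were chosen here after their values were seen. H3K27me3 covered 0% of Hal, Uroc1, Amdhd1 and Ftcd in both controls. In male E1/E2-KO liver it covered 89.5% of Hal, 100% of Uroc1, 100% of Amdhd1 and 21.0% of Ftcd. In female E1/E2-KO liver it covered 0% of Hal, 100% of Uroc1, 0% of Amdhd1 and 67.3% of Ftcd. No called region thus touched the 4 genes in the controls, and which of them had one differed between the sexes in E1/E2-KO liver. These are single lists with no test.

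Otc, the urea cycle gene of the X chromosome, was covered to 0% in male control and male E1/E2-KO liver, and to 99.8% in female control and 96.9% in female E1/E2-KO liver. This split was not particular to Otc. Gata1, a marker gene of another tissue on the same chromosome, was at 0% in both male and 100% in both female lists, and 590 of 922 genes of the X chromosome, or 64.0%, were at 0% in both male lists and covered from 25% in both female lists, against 0.0425% of the genes of other chromosomes.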
